A study of Mus musculus with 5 samples.

Results

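Heme breakdown and iron handling were followed through 10 listed genes, namely Hmox1, Hmox2, Blvra, Blvrb, Slc40a1, Ftl1, Fth1, Tfrc, Slc11a2 and Fech. Probe sets were taken when the platform annotation gave one of these symbols and no other, which left 19 probe sets of 9 genes among 45037 probe sets on the array. Ftl1 had no probe set of its own, because the 3 that name it also name a pseudogene or other genes. RNA came from C3H10T1/2 cells, a mouse mesenchymal line, that had been differentiated into adipocytes and then exposed for 6 h to butein, sulfuretin, resveratrol or the solvent DMSO. There were 5 Affymetrix arrays, 1 per group: DMSO, butein and sulfuretin, and a further solvent array, DMSO1, which the labels give as the control of resveratrol. Butein is a chalcone, sulfuretin is an aurone and resveratrol is a stilbene. The same line was used for each group, the medium was renewed the day before exposure, and no dose is stated in the labels.

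Heme oxygenases open the heme ring and release iron, carbon monoxide and biliverdin, and biliverdin reductases turn the latter into bilirubin. Freed iron is stored in ferritin or leaves the cell through ferroportin, while new iron enters through the transferrin receptor and a divalent metal transporter and is built into new heme by ferrochelatase. Transcription of the inducible oxygenase gene, of ferroportin and of ferritin is known to be raised by NRF2 and held down by BACH1, a repressor that is released when it binds heme, and iron regulatory proteins act on the ferritin, ferroportin and transferrin receptor messages.

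The deposited intensities were on a linear scale and were compared as log2 differences, each treatment against the solvent array of its own set. With 1 array per group the differences have no replicate check and no p-value is given. An increase of the signal in a whole culture does not tell more RNA per cell from more cells that carry it. Counts were limited to probe sets with at least 1 array at or above a floor of 8.39, which is the median over probe sets of the mean log2 level turned back into an intensity, and 18 of the 19 met it. A difference of at least 2-fold was used as the criterion. The cells carried the defining adipocyte transcripts, with intensities from 6122 to 7202 for Adipoq and from 7338 to 9340 for Fabp4. Of 12 adipocyte markers 10 had a probe set and 9 reached the floor, with Lep under it, and the summed intensity lay between 21478 and 25995. It was lowest with butein, against 24667 in DMSO, and the part of this in the butein differences was not tested. For fibroblast or preadipocyte markers 5 of 8 reached the floor (sums 5617 to 6232), for macrophage markers 5 of 10 (sums 78.0 to 112) and for erythroid markers 3 of 11 (sums 35.2 to 59.3). Only 6 of the 11 erythroid markers had a probe set. Adgre1, Ptprc, Hba-a1 and Alas2, which mark macrophages, leukocytes and red cells, stayed below the floor throughout. Cd14 (17.4 to 46.1), Csf1r (15.2 to 21.1) and Epor (10.2 to 24.1) were above it on every array. Cd68, Lyz2, Cx3cr1, Gata1 and Klf1 were above it on some arrays only.

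Butein and sulfuretin left Hmox1 and Slc40a1 far above the solvent level, and the other listed genes within 2-fold of it. Of the 18 counted probe sets 2 were at least 2-fold higher with butein and 0 lower, while over all 26028 counted probe sets 1.76% were higher and 0.446% lower by that criterion. With sulfuretin the same 2 probe sets passed upward and 0 downward, against 0.184% and 0.0576% of all probe sets. With resveratrol 0 passed either way, against 0.0576% higher and 0.0538% lower over all. The median log2 difference of the 18 probe sets was 0 with butein, 0.12 with sulfuretin and 0 with resveratrol, and that of all counted probe sets was 0 in each comparison. Exactly equal values, within 1e-06 on the log2 scale, are frequent in these data. They make up 4 of the 18 with butein (34.6% of all counted probe sets), 4 with sulfuretin (36.6%) and 5 with resveratrol (36.9%).

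**Figure D1:**
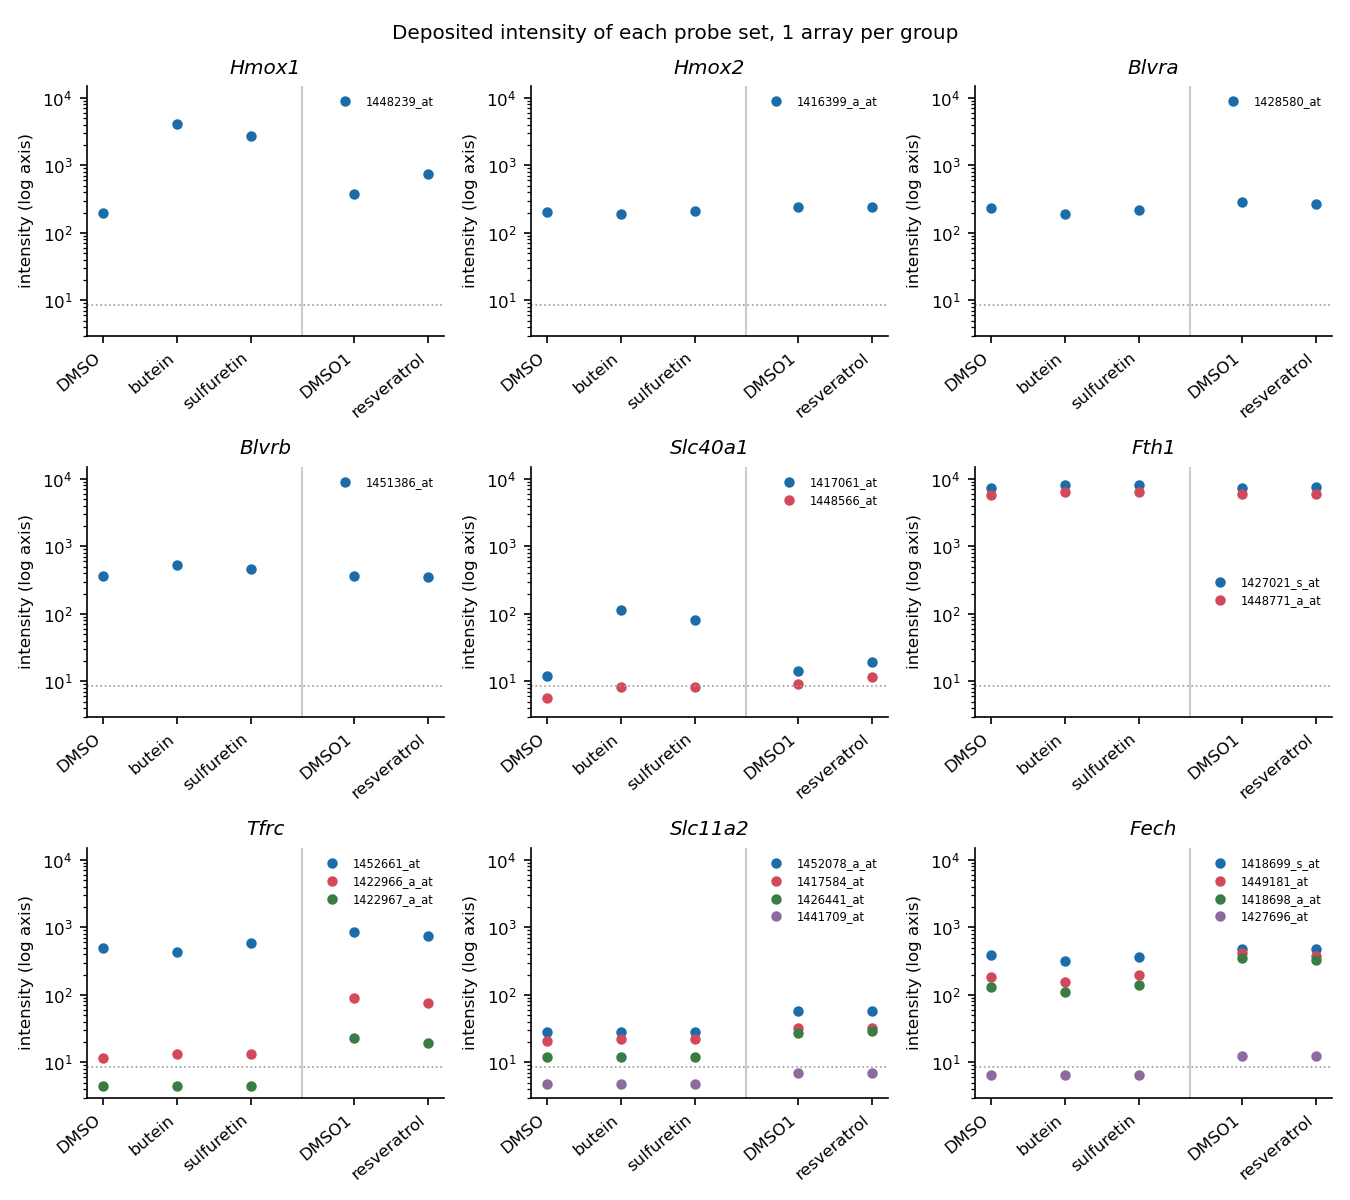
Deposited intensity (log axis) of each of the 19 probe sets on the 5 arrays, 1 panel per gene, with DMSO, butein and sulfuretin left of the grey line and DMSO1 and resveratrol right of it. The dotted line is the floor of 8.39; Hmox1 goes from 197 in DMSO to 4134 with butein and Slc40a1 from 12.1 to 114, while Fth1 1448771_a_at lies between 5775 and 6492 on every array.

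Hmox1 (NCBI gene 15368) encodes heme oxygenase 1, the inducible enzyme of heme breakdown. Its probe set 1448239_at read 197 in DMSO, 4134 with butein and 2721 with sulfuretin, and 378 in DMSO1 and 741 with resveratrol. Butein and sulfuretin arrays were far above every other array, and resveratrol lay above its own solvent array. These values are log2 differences of 4.39 with butein and 3.78 with sulfuretin. Among the 26028 counted probe sets this was the 3rd highest difference with butein and the highest with sulfuretin. With resveratrol the log2 difference was 0.97, the 21st highest, just under the criterion, and it became 1.03 when a joint quantile normalization was applied to the 5 arrays. The solvent arrays themselves differed by 0.94 for Hmox1, DMSO1 minus DMSO, as deposited and by 0.53 after joint normalization. The butein and sulfuretin arrays thus stand outside the span of the solvent arrays, and resveratrol stands above both of them by less.

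Hmox2 (NCBI gene 15369) encodes the constitutive heme oxygenase, which catalyses the same reaction. Probe set 1416399_a_at read 206 in DMSO, 193 with butein and 210 with sulfuretin, and 244 in both DMSO1 and resveratrol. The arrays are close together, with log2 differences of -0.10 with butein, 0.02 with sulfuretin and 0 with resveratrol. The sign with butein turned to 0.08 with joint normalization and the other solvent array as control. That with sulfuretin turned to -0.22 with the other solvent array on the deposited scale, but stood at 0.22 with joint normalization as well. On the deposited scale the other solvent array shifts the median of all counted probe sets. It becomes -0.65 with butein, -0.62 with sulfuretin and 0.63 with resveratrol, and signs given on that scale include this shift.

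The biliverdin reductase genes went in opposite directions with butein, by less than 2-fold each. Both differences lay within the central 95% of all counted probe sets with butein, from -0.60 to 0.84. Blvra (NCBI gene 109778), which encodes the reductase that makes most bilirubin in adult tissue, read 236 in DMSO, 190 with butein and 221 with sulfuretin on probe set 1428580_at. In the other set it read 291 in DMSO1 and 264 with resveratrol. All 3 treated arrays were below their solvent array, with log2 differences of -0.31, -0.09 and -0.14. The sulfuretin sign turned to 0.03 with joint normalization and the other solvent array, and the resveratrol sign to 0.16 with DMSO as control on the deposited scale. After joint normalization Blvra still read lower with resveratrol, at 225, than in DMSO, at 261. Blvrb (NCBI gene 233016), which encodes a flavin and biliverdin reductase abundant in red cells, read 360 in DMSO, 534 with butein and 469 with sulfuretin on probe set 1451386_at. Both polyphenol arrays were above DMSO, by 0.57 and 0.38, and they stayed above the solvent when joint normalization was combined with the other solvent array. It read 365 in DMSO1 and 346 with resveratrol, a log2 difference of -0.08.

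For the pair of reductases the proximal promoters are shown, since their signs differed with butein and RefSeq windows were at hand for both. Windows from 250 bases before to 50 after the gene start, from RefSeq on GRCm38.p6, were held for 6 of the 10 genes and 11 starts in all, and none was held for Hmox1, Slc40a1, Slc11a2 or Fech. They were searched on both strands for TGACNNNGC, the core of the antioxidant response element to which NRF2 and BACH1 bind with small Maf proteins, and for the shorter TGACNNNG. The latter is contained in each match of the former. The core was found in 1 of the 11 windows, that of Blvra, on the minus strand from 49 to 41 bases before the start, and 12.4% of 32851 windows in the table hold it. The shorter form was found in 6 of the 11, in windows of Blvra, Ftl1, Tfrc and Fth1, against 41.0% of all windows. The loop of the iron-responsive element, CAGTGN on the plus strand, was found in 0 of the 11 in the 50 bases after the start, against 7.08% of all windows. A match is a run of letters, and its absence says nothing beyond these windows. The 250 bases before the start are given below for Blvra (chr2:127070407-127070656, plus strand), with the core match in capitals, and for the upstream start of Blvrb (chr7:27447728-27447977, plus strand), which holds neither form.
Blvra: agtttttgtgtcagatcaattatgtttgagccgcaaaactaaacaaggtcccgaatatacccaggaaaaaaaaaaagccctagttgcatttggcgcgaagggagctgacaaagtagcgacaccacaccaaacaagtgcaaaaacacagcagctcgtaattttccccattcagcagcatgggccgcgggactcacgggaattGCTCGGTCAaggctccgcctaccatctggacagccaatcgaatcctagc
Blvrb: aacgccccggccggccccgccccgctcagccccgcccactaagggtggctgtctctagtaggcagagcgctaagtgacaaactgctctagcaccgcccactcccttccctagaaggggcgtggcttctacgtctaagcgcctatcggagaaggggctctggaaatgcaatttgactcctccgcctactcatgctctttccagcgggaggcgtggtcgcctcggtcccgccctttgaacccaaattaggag
Against DMSO, Blvra was lower and Blvrb higher on the butein array, each by less than 2-fold, and any part of the match in this was not tested.

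Slc40a1 (NCBI gene 53945) encodes ferroportin, the iron exporter of the plasma membrane. Its brighter probe set 1417061_at read 12.1 in DMSO, 114 with butein and 81.0 with sulfuretin, and 14.2 in DMSO1 and 19.1 with resveratrol. Low values on both solvent arrays stood against clear signals on the butein and sulfuretin arrays. The differences were 9.38-fold with butein and 6.68-fold with sulfuretin, the 17th and the 4th highest of the counted probe sets, and the DMSO level close to the floor leaves their size uncertain. With resveratrol the log2 difference was 0.43, which turned to -0.27 with joint normalization and DMSO as control. The dimmer probe set 1448566_at read 5.73 in DMSO and 8.37 with both butein and sulfuretin, and 8.97 in DMSO1 and 11.6 with resveratrol. It had the same sign in all 3 comparisons, at log2 differences of 0.55, 0.55 and 0.37, but on the DMSO, butein and sulfuretin arrays it stayed under the floor. With the other solvent array as deposited its butein and sulfuretin signs turned to -0.10, but with joint normalization as well both differences were 0.51. The response of Slc40a1 beyond 2-fold thus rests on 1 of its 2 probe sets.

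**Figure D2:**
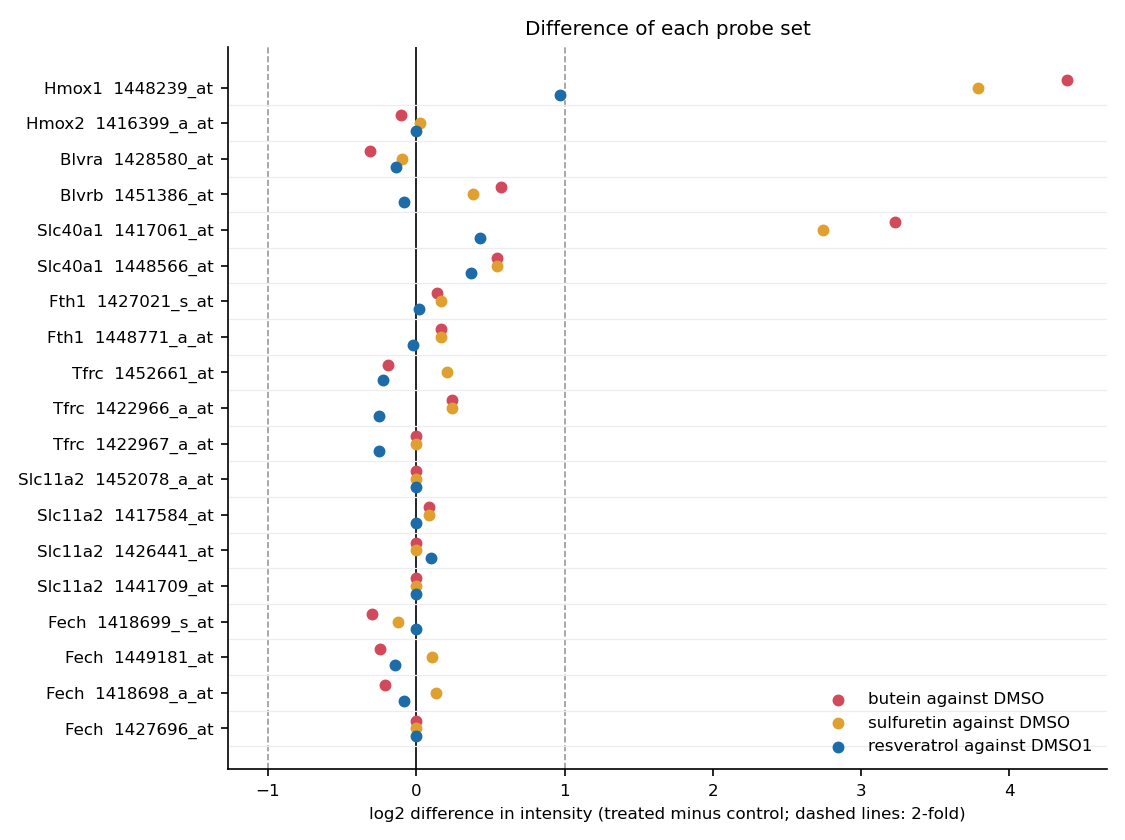
Log2 difference in intensity (treated minus control) of the 19 probe sets with butein and sulfuretin against DMSO and with resveratrol against DMSO1; the dashed lines are at 2-fold. Hmox1 and 1 probe set of Slc40a1 lie past 2-fold with butein (4.39 and 3.23) and sulfuretin (3.78 and 2.74), and the other points lie between -0.31 and 0.97.

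Ferritin heavy chain transcripts were among the brightest on the arrays and moved little. Fth1 (NCBI gene 14319) encodes the ferroxidase subunit of the iron storage shell, and its probe set 1427021_s_at read 7242 in DMSO, 7985 with butein and 8119 with sulfuretin. In the other set it read 7439 in DMSO1 and 7524 with resveratrol. Probe set 1448771_a_at read 5775 in DMSO and 6492 with both butein and sulfuretin, and 6026 in DMSO1 and 5949 with resveratrol. Log2 differences were 0.14 and 0.17 with butein and 0.16 and 0.17 with sulfuretin. Of these, the 2 butein values turned to -0.07 and -0.08 and the second sulfuretin value to -0.08 with joint normalization and the other solvent array. With resveratrol they were 0.02 and -0.02, the latter turning to 0.23 with joint normalization and DMSO as control. Light chain signal could not be assigned to Ftl1 alone.

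Tfrc and Slc11a2, the iron uptake genes among those listed, showed no difference past 2-fold in any comparison. Tfrc (NCBI gene 22042) encodes transferrin receptor 1, which brings transferrin-bound iron into the cell. Its brightest probe set 1452661_at read 500.1 in DMSO, 438 with butein and 577 with sulfuretin, and 854 in DMSO1 and 733 with resveratrol. Butein lay below and sulfuretin above the same solvent array, at log2 differences of -0.19 and 0.21 (the latter -0.21 with joint normalization and DMSO1 as control), and resveratrol lay below its own at -0.22. Probe set 1422966_a_at read 11.4 in DMSO and 13.5 with both butein and sulfuretin, which is 0.24 higher, so its sign with butein is opposite to that of the brightest, and with joint normalization and DMSO1 as control it turned to -1.99. It read 88.8 in DMSO1 and 74.6 with resveratrol, or -0.25. Probe set 1422967_a_at was at 4.45, under the floor, on the DMSO, butein and sulfuretin arrays, and read 22.8 in DMSO1 and 19.2 with resveratrol. With resveratrol the 3 Tfrc probe sets were lower by similar amounts, from -0.22 to -0.25, but each turned upward, to 0.23, 1.95 and 1.60, with joint normalization and DMSO as control.

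Slc11a2 (NCBI gene 18174) encodes the divalent metal transporter that carries iron out of endosomes. Its 4 probe sets were dim, from 4.71 to 28.0 in DMSO and from 7.03 to 58.4 in DMSO1. The brightest, 1452078_a_at, had 1 value, 28.0, on the DMSO, butein and sulfuretin arrays and another, 58.4, on the DMSO1 and resveratrol arrays. Probe set 1417584_at read 20.8 in DMSO and 22.1 with both butein and sulfuretin, and 32.8 in DMSO1 and resveratrol. Its difference of 0.09 turned to -0.57 with DMSO1 as control on the deposited scale. With joint normalization and DMSO1 as control it was 0.29 with butein and 0.30 with sulfuretin. Probe set 1426441_at read 11.9 on the 3 arrays of the DMSO set, 26.9 in DMSO1 and 28.8 with resveratrol. Probe set 1441709_at read 4.71 in the DMSO set and 7.03 in the other, below the floor. The largest log2 difference of Slc11a2 in any of the 3 comparisons was 0.10, with resveratrol.

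Fech (NCBI gene 14151) encodes ferrochelatase, the enzyme that inserts iron into protoporphyrin as the last step of heme synthesis. Probe set 1418699_s_at read 391 in DMSO, 318 with butein and 359 with sulfuretin, and 482 in both DMSO1 and resveratrol. Probe set 1449181_at read 185 in DMSO, 156 with butein and 199 with sulfuretin, and 419 in DMSO1 and 380 with resveratrol. Probe set 1418698_a_at read 129 in DMSO, 112 with butein and 142 with sulfuretin, and 352 in DMSO1 and 332 with resveratrol. With butein the 3 bright probe sets were lower, at log2 differences of -0.30, -0.24 and -0.21, and the sign held with either solvent array as control. The size did not hold: with DMSO1 as control the values were -0.60, -1.43 and -1.66 as deposited and -0.23, -1.005 and -1.25 with joint normalization, so that 1449181_at and 1418698_a_at passed 2-fold. With sulfuretin they disagreed, at -0.12, 0.11 and 0.13, and the latter values turned to -0.66 and -0.88 with joint normalization and DMSO1 as control. With resveratrol they stood at 0, -0.14 and -0.08, and the latter turned to 0.65 and 0.96 with joint normalization and DMSO as control. The dim probe set 1427696_at had 6.42 on the arrays of the DMSO set and 12.4 on the others, with no difference in any comparison.

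**Figure D3:**
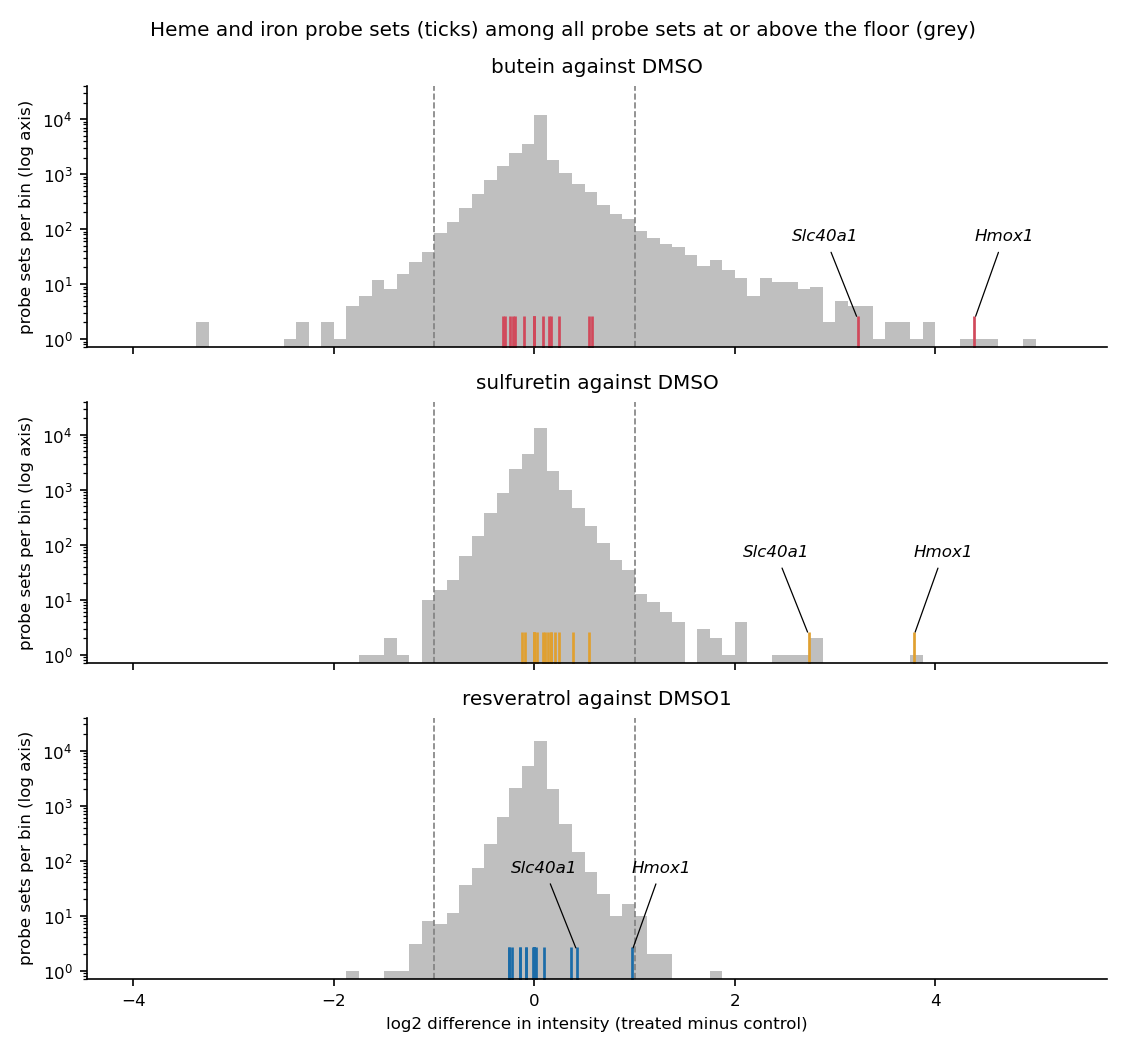
Distribution of the log2 difference over the 26028 probe sets at or above the floor (grey bars, probe sets per bin on a log axis) for the 3 comparisons, with the 18 counted heme and iron probe sets as coloured ticks. Hmox1 and the brighter Slc40a1 probe set lie in the far right tail with butein and sulfuretin, and the central 95% of all probe sets runs from -0.60 to 0.84 with butein, from -0.37 to 0.44 with sulfuretin and from -0.30 to 0.26 with resveratrol.

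Butein and sulfuretin share the solvent array, so their values are set side by side without a measure of overlap. Set against butein directly, sulfuretin left 0 of the 18 counted probe sets past 2-fold either way, against 0.111% higher and 0.88% lower over all counted probe sets. Hmox1 was 1.52-fold lower with sulfuretin than with butein, the brighter Slc40a1 probe set 1.40-fold lower and Blvrb 1.14-fold lower. Higher with sulfuretin were the brightest Tfrc probe set by 1.32-fold and Fech by 1.28-fold, 1.27-fold and 1.13-fold on its 3 bright probe sets. The remaining counted probe sets differed by at most 1.16-fold. This is 1 pair of compounds with 1 array each, so no interval can be given, and with unstated doses the sizes are not shown to be at matched exposure.

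The only spread that these arrays offer for unexposed cells is that between the solvent arrays. After joint quantile normalization, which puts the median difference of all counted probe sets at 0.005, DMSO1 was at least 2-fold above DMSO for 7.10% of the counted probe sets and at least 2-fold below for 4.38%. That difference also holds whatever else separates the 2 sets of arrays. On this scale the difference exceeded that between the solvent arrays in size for 6 of the 18 probe sets with butein, namely Hmox1, Blvra, Blvrb, both of Slc40a1 and Fech 1418699_s_at, and for 23.2% of all counted probe sets. With sulfuretin it did so for 5, the same without Blvra, and for 15.0% of all. With resveratrol it did so for 4 and for 11.2% of all, and the 4 were Hmox1, Blvra, Slc40a1 1448566_at and Fth1 1427021_s_at. As deposited, Slc40a1 1448566_at read 5.73 in DMSO and 8.37 with both butein and sulfuretin, all under the floor. For Slc40a1 with butein and sulfuretin, only the brighter probe set was thus above the floor. For Hmox1 the values were 4.20 with butein, 3.62 with sulfuretin and 1.03 with resveratrol beside 0.53 between the solvent arrays. For the brighter Slc40a1 probe set they were 3.01, 2.57 and 0.35 beside -0.63, so that only the butein and sulfuretin values are larger than the solvent difference.

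**Figure D4:**
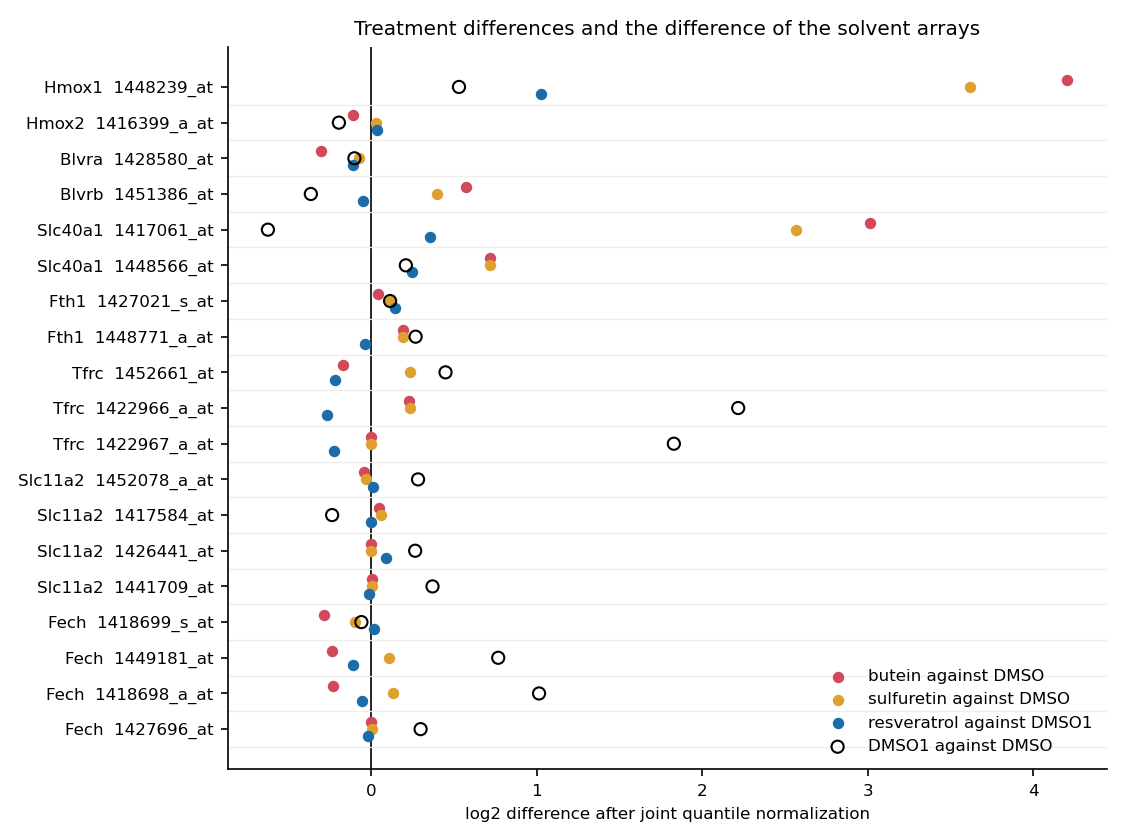
Log2 differences of the 19 probe sets after the 5 arrays were quantile normalized together, with the treatments as filled points and DMSO1 against DMSO as open circles. The Hmox1 and Slc40a1 1417061_at points of butein and sulfuretin lie at 2.57 or above, well outside the open circles, whereas 2 Tfrc probe sets differ more between the solvent arrays (2.22 and 1.83) than with any treatment.

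Of 81 other genes of heme and iron metabolism in 6 lists, 73 had a single-gene probe set and 62 reached the floor on their brightest. With butein 4 of the 62 were at least 2-fold higher and 0 lower, against 2.03% and 0.297% of 12439 counted genes. With sulfuretin 1 was higher and 0 lower, against 0.193% and 0.0482%, and with resveratrol 0 passed, against 0.0804% and 0.0643%. The median log2 difference of the 62 was 0 in each comparison, as it was over all counted genes. Between sulfuretin and butein 0 of the 62 passed either way on their brightest probe set, against 0.0965% higher and 1.04% lower over all. Directions in these lists depend on the control array: with joint normalization and the other solvent array 14 of the 62 had the other sign with butein, 23 with sulfuretin and 23 with resveratrol. Joint normalization alone turned 1, 3 and 5. Of the 62, 12, 13 and 16 equalled their control and could not be counted as turned. The share of turned signs over all counted genes was not taken, so this is not shown to be particular to these lists.

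The genes past 2-fold were mostly those of heme movement and sensing, where 3 of 15 counted genes were higher with butein. Bach1, the heme-binding repressor of Hmox1, read 79.5 in DMSO, 270 with butein and 167 with sulfuretin, log2 differences of 1.76 and 1.07, and 102 in DMSO1 and 136 with resveratrol. A dimmer probe set of Bach1 had differences of 1.89 and 0.93. The sulfuretin difference of the brighter was under 2-fold with DMSO1 as deposited (0.70) and with the mean of both solvent arrays (0.89). It was 1.22 with joint normalization and DMSO1 as control. Flvcr1, a heme exporter gene, read 36.6 in DMSO, 111 with butein and 64.2 with sulfuretin (1.60 and 0.81), and 57.4 in DMSO1 and 82.6 with resveratrol (0.52). With DMSO1 as deposited its butein difference was 0.95, just under 2-fold, and with joint normalization and DMSO1 it was 1.56. Its other probe set read 6.42 in the DMSO set and 10.5 in the other, equal within each. Slc48a1, which encodes the transporter that brings heme from lysosomes to the cytosol, read 143 in DMSO, 349 with butein and 267 with sulfuretin (1.29 and 0.90), and 296 in DMSO1 and 273 with resveratrol (-0.11, or 0.52 against DMSO with joint normalization). With joint normalization and DMSO1 as control its butein difference was 0.65, under 2-fold, and its sulfuretin difference 0.28. With DMSO1 as deposited its sulfuretin difference was -0.15. Its second probe set had 1.57 and 1.39. Lowest in this list was Abcb10 with butein (-0.40) and sulfuretin (-0.14), and Pgrmc2 with resveratrol (-0.26). The list's median was 0.10 with butein, 0.10 with sulfuretin and 0 with resveratrol.

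Among 14 counted genes of iron uptake and transport, Steap1, of a family of metalloreductases, was past 2-fold with butein. It read 17.3 in DMSO, 42.0 with butein and 24.7 with sulfuretin, and 32.5 in DMSO1 and 38.4 with resveratrol. With DMSO1 as deposited its butein difference was 0.37, under 2-fold, and its sulfuretin difference of 0.52 turned to -0.40. With joint normalization and DMSO1 as control these differences were 1.16 and 0.46. A dimmer probe set of Steap1 read 6.42 in DMSO, 14.8 with butein and 6.72 with sulfuretin, log2 differences of 1.20 and 0.07. Its DMSO and sulfuretin values were under the floor. Steap4, a metalloreductase gene well expressed in fat cells, was the lowest of the list in all 3 comparisons, at -0.55, -0.45 and -0.43. The medians were 0.08, 0.03 and 0.

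In the list of ferritin turnover and iron regulatory proteins 0 of 6 counted genes passed 2-fold. Epas1, the gene of HIF-2 alpha, was lowest with butein at -0.94 (27.4 in DMSO and 14.3 with butein) and with sulfuretin at -0.47. Aco1, which encodes iron regulatory protein 1, read 1399.7 in DMSO, 891 with butein and 1200.3 with sulfuretin, and 1846 in DMSO1 and 1576 with resveratrol. Its treated arrays were below the solvent in each comparison, at -0.65, -0.22 and -0.23, the last turning to 0.06 with joint normalization and DMSO as control. Fbxl5, which encodes the ligase subunit that marks iron regulatory protein 2 for breakdown, was the highest with butein (0.38) and sulfuretin (0.32), turning to -0.38 and -0.42 with joint normalization and DMSO1 as control, and no gene of the list was higher with resveratrol.

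Heme synthesis genes other than Fech had 6 counted members and 0 past 2-fold. Alad, the gene of the second enzyme of the pathway, was lowest with butein (-0.53, 334 in DMSO and 231 with butein) and sulfuretin (-0.29). Alas1, the rate-limiting enzyme gene outside red cells, read 191 in DMSO, 183 with butein and 202 with sulfuretin, and 306 in DMSO1 and 290 with resveratrol, where it was lowest of the list at -0.08 (0.22 with joint normalization and DMSO as control). None of the 6 was higher with butein, and Cpox was highest with sulfuretin (0.17, or -1.22 with joint normalization and DMSO1 as control) and resveratrol (0.06).

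Iron-sulfur cluster assembly had 17 counted genes and 0 past 2-fold, of which 11 were lower and 2 higher with butein, 7 lower and 6 higher with sulfuretin and 8 lower and 4 higher with resveratrol. Isca2 was the lowest in all 3, at -0.65, -0.28 and -0.24, and Ciapin1 the highest with butein (0.31) and sulfuretin (0.27), and Iba57 with resveratrol (0.11). With DMSO1 as deposited Ciapin1 turned to -0.04 and -0.08, but after joint normalization it read 186 with butein and 183 with sulfuretin against 140 in DMSO1. Over all counted genes 37.1% were lower and 33.0% higher with butein, 32.6% and 34.8% with sulfuretin and 33.97% and 32.9% with resveratrol. Systemic iron regulation had 4 counted genes and 0 past 2-fold. There Neo1 was lowest with butein (-0.34) and resveratrol (-0.26) and Hamp2 with sulfuretin (-0.08), while Hfe was highest with butein and sulfuretin (0.09 each) and Tmprss6 with resveratrol (0.07). With joint normalization and the other solvent array the Hfe values turned to -0.48 and -0.47 (butein and sulfuretin), Hamp2 to 1.75 and Tmprss6 to -0.31. Neo1 with resveratrol turned to 0.03 against DMSO as deposited, but after joint normalization it read 113 against 153 in DMSO. Hamp, which encodes hepcidin, read from 4.45 to 4.94, below the floor.

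**Figure D5:**
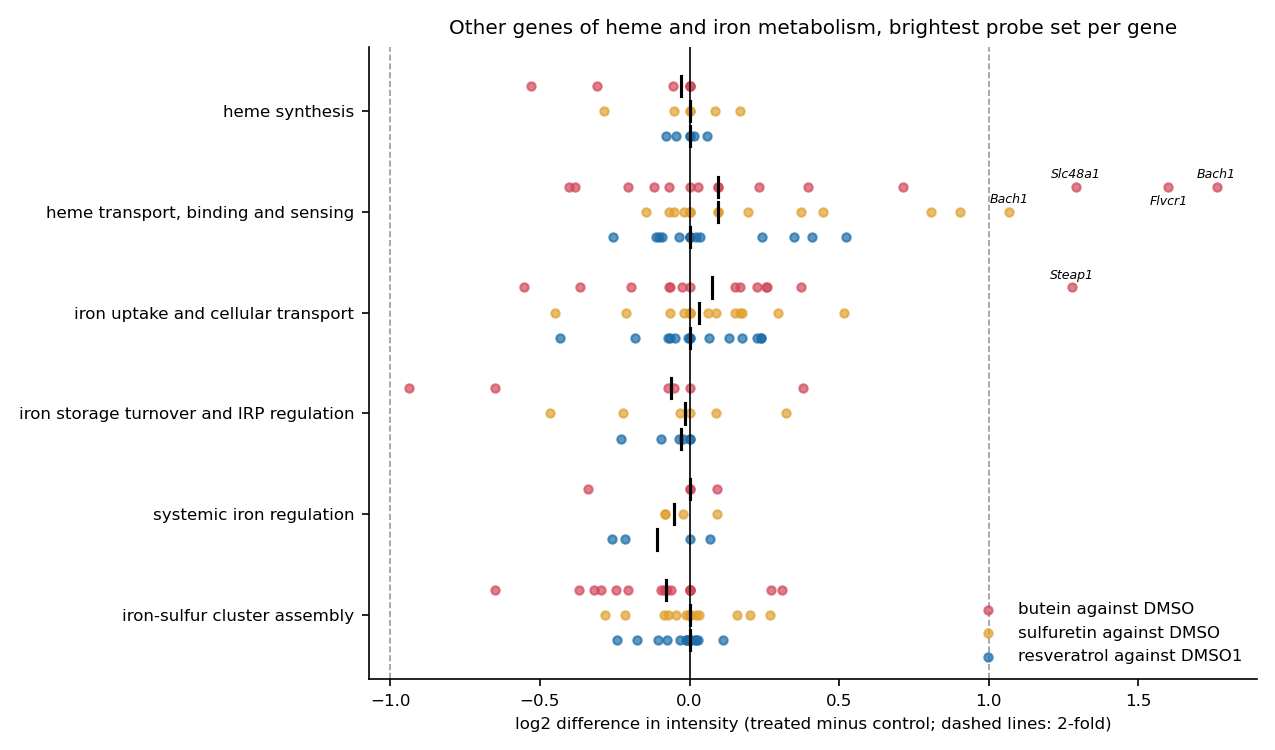
Log2 difference (treated minus control) of the 62 counted genes of 6 heme and iron lists, by the brightest probe set of each gene, with the list median as a black bar and 2-fold as dashed lines. Bach1, Flvcr1, Slc48a1 and Steap1 lie past 2-fold with butein, Bach1 alone with sulfuretin, and no resveratrol point does.

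Likeness of response was measured as the Euclidean distance between the 3 log2 differences of 2 genes, over 3 comparisons of which 2 share a control. It was taken among the 12439 counted genes, leaving out the listed genes and genes with clone or predicted names. Hmox1 and Slc40a1 were thus not ranked against each other. The distance depends on the size of the differences, so genes with small differences could not rank near either of them. Nearest to Hmox1 were Srxn1 (distance 1.25), Osgin1 (1.96), Gclc (1.97), Ak4 (2.34) and Maff (2.5). Nearest to the brighter Slc40a1 probe set were Srxn1 (0.61), Ak4 (0.78), Gclc (0.84), Slc2a1 (1.25) and Gclm (1.27). Srxn1, which encodes sulfiredoxin, was the closest ranked gene to both, with log2 differences of 3.83 with butein, 2.76 with sulfuretin and 0.52 with resveratrol. Hmox1 had the smaller drop from butein to sulfuretin, -0.60 against -1.07 for Srxn1, -2.55 for Osgin1, -1.65 for Gclc, -0.99 for Ak4 and -3.48 for Maff. For Slc40a1 that difference was -0.49, against -1.10 for Slc2a1 and -0.47 for Gclm, the other genes near it being those already given.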

How the data were processed

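Intensities were deposited by the authors on a linear scale, from 1.40 to 9340. RMA is the only tool named per the submitters' processing notes, although it usually returns log2 values, and its version was not stated. Labelled cRNA came from 500 ng of RNA per array, per the labels' protocols. Ranked values of the DMSO, butein and sulfuretin arrays differ by a median of at most 0.0023 on the log2 scale and those of DMSO1 and resveratrol by 0.0013, against 0.50 to 0.52 across these sets, so each treatment was compared within its set. Of 45037 probe sets 34945 name 1 gene, 932 several and 9160 none. The number of arrays limits the precision.

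Log2 was taken without a pseudocount. Lists used the brightest probe set of each gene, named through the RefSeq table of GRCm38.p6 (the gene ID of 34741 single-gene probe sets matched). Each group has 1 array, and no test was made. The genes, lists and motifs were chosen with earlier results of these data known. Named were every probe set of the listed genes, list genes past 2-fold, and the highest and lowest gene of each list per comparison. Also named were the 5 genes outside the listed ones, without clone or predicted names, nearest in response to Hmox1 and to Slc40a1. Hamp, and the values of Alas1 and Aco1 where they are no extreme, were added after they were seen. Alternatives were fold criteria, floors, joint quantile normalization, centring, the other or both solvent arrays as control, leaving out probe sets that may cross-hybridise, and the mean of a gene's probe sets. Protein sequences were not used here. The differences, the 2-fold calls and the quantile normalization were checked on simulated arrays, and the motif search on constructed sequences. The other steps were not checked in this way. Python 3.11.15, numpy 2.4.6, pandas 2.3.3 and matplotlib 3.10.9 were used.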

Additional observations from a re-analysis of the deposited data

Results flagged for a closer look

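There were 3 probe sets that name Ftl1, the ferritin light chain gene, together with its pseudogene Ftl1-ps2 (1418364_a_at and 1422302_s_at) or with these and Mir692 genes (1422301_at), and were therefore outside the counted probe sets. They are given because their signal lay above the solvent level on the butein and sulfuretin arrays. Probe set 1418364_a_at read 3232 in DMSO, 5166 with butein and 4760 with sulfuretin, log2 differences of 0.68 and 0.56. Probe set 1422302_s_at read 2983, 4316 and 4300 (0.53 and 0.53). After joint normalization it read 4197 with butein and 4133 with sulfuretin against 2950 in DMSO and 4233 in DMSO1, so both signs turned with DMSO1 as control, and the solvent arrays differed by 0.52. Probe set 1422301_at read 279, 422 and 392 (0.60 and 0.49). After joint normalization 1418364_a_at read 4924 with butein and 4694 with sulfuretin against 3628 in DMSO1. On that scale 1422301_at read 462 and 441 against 243, so these probe sets stayed above DMSO1. With resveratrol the 3 probe sets read 3728, 4205 and 291 against 3551, 4052 and 291 in DMSO1. None reached 2-fold, and the signal cannot be assigned to any of the genes named.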

How the results depend on the processing

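The log2 differences of Hmox1 and the brighter Slc40a1 probe set with butein and sulfuretin kept their direction and stayed past 2-fold under joint quantile normalization, centring, the other solvent array, the mean of both, and joint normalization with the other array. Counts of listed probe sets and list genes moved with the control array, also after joint normalization. With the other solvent array as deposited, 8 listed probe sets passed 2-fold with butein, 8 with sulfuretin and 8 with resveratrol, and 14, 11 and 15 list genes. Of the 8, 6 were lower with butein and 6 with sulfuretin, and 8 were higher with resveratrol, in which directions 28.0%, 26.7% and 27.5% of all counted probe sets passed. Of the list genes 12 and 10 were lower and 14 higher, against 19.7%, 17.3% and 18.8% of all counted genes. With the mean of both solvent arrays the listed probe sets were 4, 4 and 2. Here 2 were lower with butein and 2 with sulfuretin, against 5.37% and 4.45% of all, and 2 higher with resveratrol, against 4.13%. The list genes were 5 with butein (2 higher, 3 lower), 1 with sulfuretin (lower) and 3 with resveratrol (higher). Of all counted genes 1.29% were higher and 2.35% lower with butein, 1.21% lower with sulfuretin and 1.3% higher with resveratrol. With joint normalization and the other solvent array the listed probe sets were 6, 4 and 3, and the list genes 7, 4 and 4. Of the list genes 4 were higher and 3 lower with butein, against 6.27% and 3.18% of all counted genes. With sulfuretin 2 were higher and 2 lower, against 4.14% and 2.39%. Beside the 4 with resveratrol, 2.51% of all counted genes were higher and 4.25% lower. Of the listed probe sets 4 were lower with butein and 2 with sulfuretin, against 7.72% and 7.10% of all, and 3 higher with resveratrol, against 7.11%. Joint normalization alone brought Hmox1 with resveratrol past the criterion, for 1 listed probe set. At 1.5-fold, 8 list genes passed with butein and 3 with sulfuretin, and 1 listed probe set (Hmox1) passed with resveratrol and 1, also Hmox1, between sulfuretin and butein. At 3-fold, 2 list genes passed with butein and 0 with sulfuretin. No share over all probe sets or genes was taken at 1.5-fold or 3-fold. Leaving out Bach1, Nr1d1 and Nr1d2, an alternative chosen after seeing the data, left 0 list genes with sulfuretin. No paired analysis was possible because each group has 1 array.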

Other observations

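Of the transferrin receptor and ferrochelatase probe sets, several differed more between the solvent arrays than with any treatment. This was not particular to them, and Hmox2 and the counted Slc11a2 probe sets did so too. On the joint scale the treatment difference was larger for 23.2% of all counted probe sets with butein, 15.0% with sulfuretin and 11.2% with resveratrol. After joint quantile normalization the Tfrc probe sets 1422966_a_at and 1422967_a_at were higher in DMSO1 than in DMSO by 2.22 and 1.83 on the log2 scale, at 68.9 against 14.8 and 15.5 against 4.36, while the brightest Tfrc probe set, 1452661_at, was higher by 0.45. Fech was higher by 1.01 and 0.77 on 1418698_a_at and 1449181_at but -0.06 on 1418699_s_at. The brighter Slc40a1 probe set went the other way, at -0.63.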
